A study of Rattus norvegicus with 12 samples.

Results

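The natriuretic peptides and the fetal cardiac programme were followed through 10 genes, Nppa, Nppb, Myl7, Myl4, Tnni1, Acta1, Ankrd1, Xirp1, Csrp3 and Fhl1. Their probes were all non-control probes assigned to one of these symbols by accession or, failing that, by current or older gene name. This gave 14 probes of 41012 on the array. The array measured RNA of the left ventricle and of whole blood from male Sprague-Dawley (CD) rats, 10 weeks old at the start and labelled 11 weeks. Amiodarone, a drug against arrhythmia, was given by mouth at 300 mg/kg/day for 10 days, and the control rats received its vehicle, methylcellulose at 1%. Each tissue had 3 amiodarone pools and 3 vehicle pools, with 1 array per pool. The labels do not say how many rats made up a pool, so the p-values below measure the spread between pools.

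Atrial natriuretic peptide (Nppa) and brain natriuretic peptide (Nppb) are hormones that heart muscle cells release when stretched, and they act through receptors that make cyclic GMP. In the developing heart the ventricle makes Nppa together with sarcomere proteins such as skeletal actin, slow skeletal troponin I and the atrial myosin light chains. The adult ventricle lowers most of these, and overload raises several of them again, so the group is read as a fetal programme. Ankrd1, Xirp1, Csrp3 and Fhl1 encode proteins of the Z-disc, the titin filament and the cell junctions that take part in sensing stretch.

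The molecules measured were short stretches of each transcript. The Agilent probes of 4 of the genes on which the results turn, each 60 bases long, are printed 5′ to 3′ as the array files give them. The Nppa probe lay at chr5:165074636-165074695 (+), the Tnni1 probe at chr13:48840073-48840132 (+) and the Myl7 probe at chr14:86568278-86568683 (-), in the rn4 build that the files use. The Myl7 interval is longer than its probe. The Myl4 probe has no position in the files and was matched by its accession.
Nppa: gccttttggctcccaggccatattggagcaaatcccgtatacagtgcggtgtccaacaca
Tnni1: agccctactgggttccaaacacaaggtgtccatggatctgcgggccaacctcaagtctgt
Myl7: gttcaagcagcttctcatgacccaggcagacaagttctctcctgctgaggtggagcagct
Myl4: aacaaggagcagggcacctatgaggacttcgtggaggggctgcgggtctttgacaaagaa

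Of the 10 genes, 8 had 1 probe, and that of Nppa was printed in 10 spots per array. Nppb had 3 probes. The one named for its mRNA lay on the + strand at chr5:165063564-165063623. The others both came from the same expressed sequence tag on the - strand, at chr5:165062804-165062863 and chr5:165062824-165062883, and shared 40 bases with each other. Fhl1 had 3 probes on the X chromosome that shared no long run. Where a gene had several probes, the brightest that passed the filter stood for it, and the rest are given beside it.

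Levels are log2 signals relative to the array's 75th percentile, so 0 is the brightness of that percentile. A gene was tested if 1 group or both had it above background in all 3 pools by the scanner software's flag, which gave 17764 features in heart and 15909 in blood. In heart the 75th percentile of the processed signal was 103 to 165 over the 6 arrays. Ventricular markers had no call among 14, and their summed signal was 7051 to 9554 times the 75th percentile in vehicle and 8101 to 8573 times in amiodarone pools.

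Amiodarone heart pool 3 stood apart from the other 5 in genes of atrial muscle. Sarcolipin (Sln), an atrial regulator of the calcium pump, was at 6.14 there and at most 0.79 in any other pool. The atrial myosin-binding protein Mybphl was at 3.17 there and at most -1.55 elsewhere. Of the 14 listed atrial markers on the array, 8 had their highest level in amiodarone pool 3, against 13.7% of all features. Nppa and Myl7 are among those 8, and without Nppa, Myl4 and Myl7 the count was 6 of 11. Each member's heart result is therefore given with and without this pool.

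**Figure D1:**
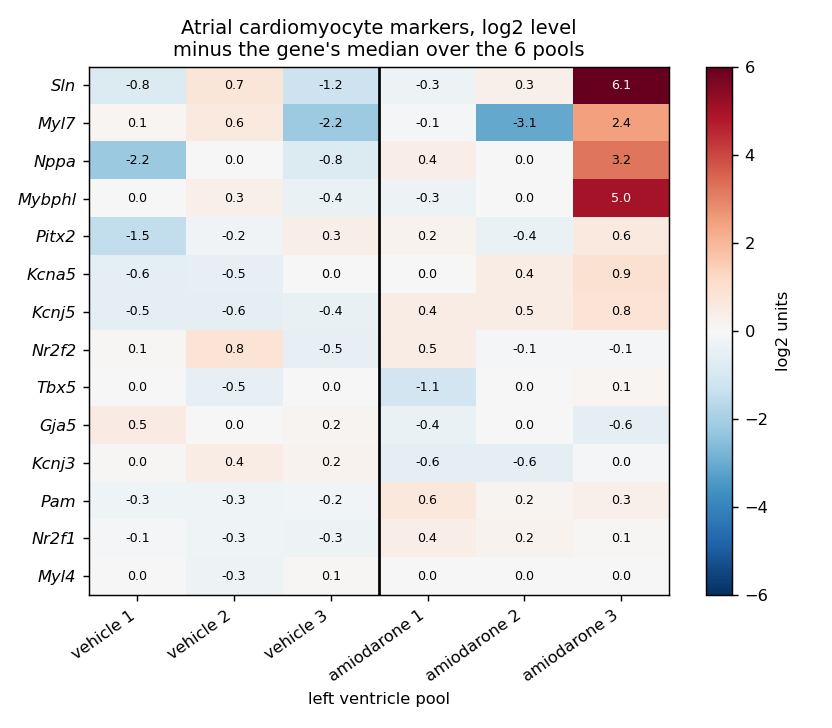
Levels of 14 atrial cardiomyocyte markers in the 6 left ventricle pools, in log2 units from each gene's median over the pools (colour and printed value; genes ordered by range). Sln and Mybphl stand far above their medians in amiodarone pool 3, where Nppa and Myl7 are also highest, while Myl4 hardly varies.

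Amiodarone changed 2 of the 10 members in the left ventricle, against 8.36% of all features. Skeletal actin, Acta1, fell, and slow skeletal troponin I, Tnni1, rose. In the other 8 the difference did not pass the threshold of 0.05 on limma's adjusted p. By direction, 1 of the 10 rose, against 4.35% of features, and 1 fell, against 4.01%. The groups did not overlap for 4 members, Acta1, Tnni1, Nppa and Ankrd1, against 32.3% of all features. In 3 of them the amiodarone pools were the higher, against 19.1%, and in Acta1 the lower, against 13.2%. The median difference over the 10 members was 0.092, and over all features it was 0.029.

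**Figure D2:**
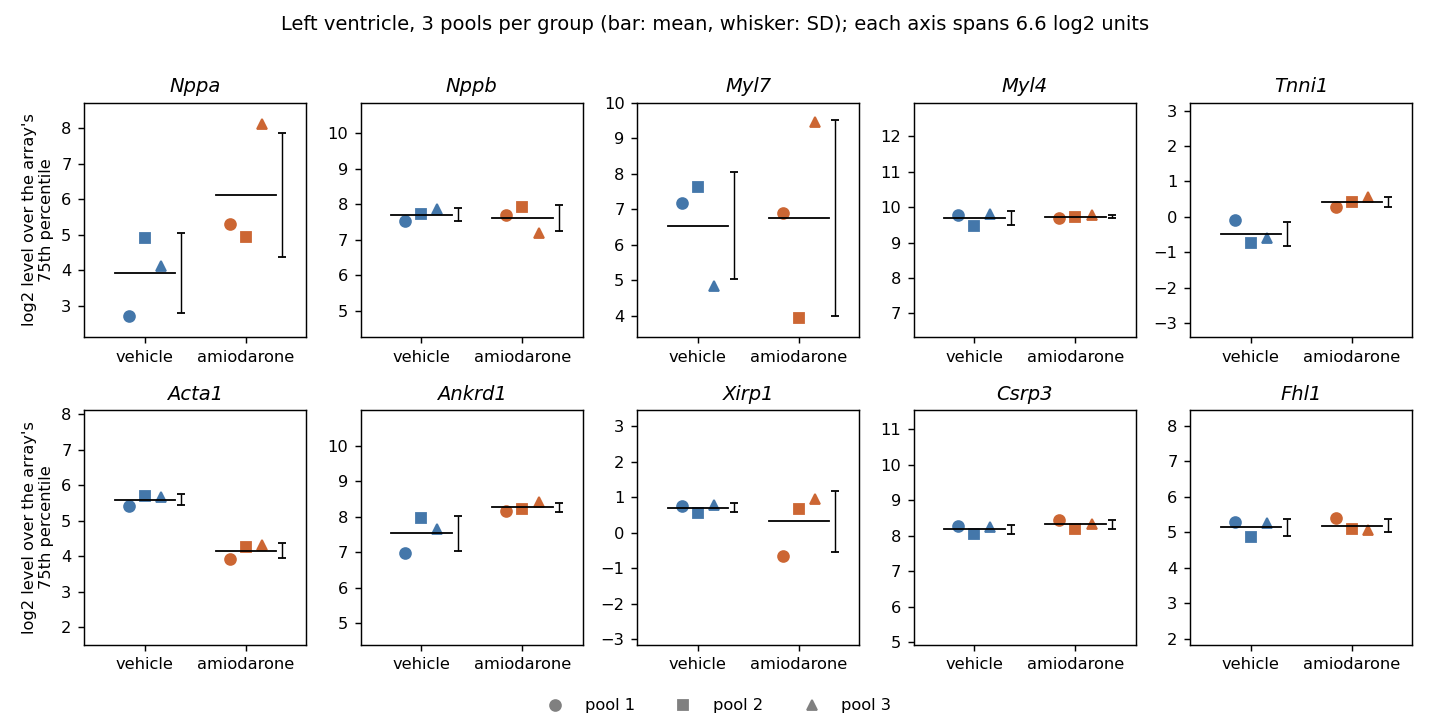
Level of each member in every left ventricle pool (log2 over the array's 75th percentile; symbols mark pools 1 to 3, the bar the mean, the whisker 1 SD, n = 3 per group). Acta1 and Tnni1 separate by group, whereas the Nppa and Myl7 panels fill most of their axes.

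Nppa, the precursor of atrial natriuretic peptide, was the hormone gene with the widest spread. Its levels were 2.70, 4.92 and 4.12 in vehicle pools 1 to 3 and 5.30, 4.92 and 8.13 in amiodarone pools 1 to 3. Vehicle pool 1 was far below the rest and amiodarone pool 3 far above, and the nearest pools of the 2 groups were 0.0061 apart, so the separation of the groups was marginal. The groups overlapped with normexp, with quantile scaling, without scaling and in the authors' value table. The groups' means were 3.91 ± 1.12 and 6.12 ± 1.75 (SD, n = 3 each).

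The difference in Nppa was 2.21 with an SE of 0.88, which is 4.62-fold on the linear scale. Its adjusted p in limma was 0.173 and did not pass. Without amiodarone pool 3 the difference was 1.20, with an adjusted p of 0.248. Vehicle pools 1 and 2 and amiodarone pools 1 and 2 lay on the first slide, where the difference was 1.30. Pool 3 of each group lay on the second slide, where it was 4.02. From the lowest to the highest pool Nppa covered 43.2-fold, a range wider than that of 99.9% of features. In bulk tissue, a change in the number of cells of a type and a change in RNA per cell cannot be told apart.

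Nppb, the precursor of brain natriuretic peptide, varied about as much as a typical feature, with a range over the 6 pools wider than that of 47.7% of features. Its levels were 7.52, 7.71 and 7.88 in vehicle pools 1 to 3 and 7.71, 7.92 and 7.20 in amiodarone pools 1 to 3. The groups overlapped, and the lowest value belonged to amiodarone pool 3, in which Nppa was highest. The difference was -0.094, with a 95% interval from -0.59 to 0.40 and an adjusted p of 0.816. Without amiodarone pool 3 it was 0.11. The opposite-strand probes, which overlap and come from the same tag, gave -0.14 and -0.13, neither past the threshold. Whether probes of that strand measured the Nppb mRNA was not tested.

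Nppa and Nppb are neighbours on one strand of chromosome 5. The 250 bases before the start of each are shown because their levels varied so differently over the same pools, at chr5:163711934-163712183 (+) for Nppa and chr5:163699758-163700007 (+) for Nppb in the GRCr8 build, from RefSeq. Capitals mark GATAA, the core bound by GATA factors, TATAAA, and CATTCC, the core bound by TEAD factors. A match on the opposite strand is in capitals as its reverse complement.
Nppa: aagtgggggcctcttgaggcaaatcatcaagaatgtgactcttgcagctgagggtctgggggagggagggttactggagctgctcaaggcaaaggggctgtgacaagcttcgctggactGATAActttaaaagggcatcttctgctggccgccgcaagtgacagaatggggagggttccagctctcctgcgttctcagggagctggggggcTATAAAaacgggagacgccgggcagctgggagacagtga
Nppb: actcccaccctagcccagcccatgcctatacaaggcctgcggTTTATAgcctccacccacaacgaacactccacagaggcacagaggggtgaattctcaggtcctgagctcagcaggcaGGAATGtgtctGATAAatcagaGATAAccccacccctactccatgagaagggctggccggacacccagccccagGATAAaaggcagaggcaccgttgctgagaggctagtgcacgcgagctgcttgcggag
GATAA occurs 1 time in the Nppa stretch and 3 times in the Nppb stretch, and 23.5% of all 33469 RefSeq rat promoters of that length hold it. TATAAA, held by 12.9% of promoters, begins 39 bases before the Nppa start. CATTCC, held by 12.1%, was found for Nppb and not for Nppa. A match describes letters and shows no binding.

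Myl7, the atrial regulatory light chain of myosin, varied over the pools as widely as Nppa. Its levels were 7.16, 7.62 and 4.82 in vehicle pools 1 to 3 and 6.88, 3.93 and 9.47 in amiodarone pools 1 to 3. Vehicle pool 3 and amiodarone pool 2 were low, and amiodarone pool 3 was high. The groups overlapped over the 6 pools, while on the first slide alone both amiodarone pools were below both vehicle pools.

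The difference in Myl7 was 0.23 with an interval from -2.86 to 3.31, so these 6 pools left even its direction unsettled. Without amiodarone pool 3 it was -1.13. On the first slide it was -1.98, and on the second slide 4.64. The range over the pools was 46.3-fold for Myl7. For Sln and Mybphl, which are no members, the same range was 160-fold and 41.7-fold.

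Over the 11 atrial markers that are no members, the summed signal was 154 to 164 times the array's 75th percentile in vehicle pools. In amiodarone pools it was 213 to 314 times, so every amiodarone pool was above every vehicle pool. Most of this sum came from Pam, with a mean level of 7.10 in vehicle and 7.70 in amiodarone pools. Sln and Mybphl together summed to 0.66 to 2.07 in vehicle pools, and to 1.09, 1.56 and 79.7 in amiodarone pools 1 to 3. For that pair only amiodarone pool 3 was above the vehicle pools. With Myl4, Myl7 and Nppa, which carry most of the signal, the sum over all 14 was 1086 to 1187 times in vehicle and 1100 to 2173 times in amiodarone pools. Of the 13 tested, 1 passed, the potassium channel gene Kcnj5, which rose by 1.11 (adjusted p in limma 0.0076). The others went both ways, with Pam at 0.60, Nr2f2 at -0.022, Gja5 at -0.53 and Kcnj3 at -0.64. The list's median difference was 0.59. The part of atrial tissue in the Nppa and Myl7 values was not tested.

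Myl4, the atrial essential light chain, did not follow these markers as its 1 probe measured it. That probe was bright in every pool, as was the probe of the ventricular light chain Myl3, at a mean of 10.4 in both groups. Whether the Myl4 probe also bound RNA of other light chains was not tested. Myl4 was at 9.79, 9.46 and 9.82 in vehicle pools 1 to 3 and 9.70, 9.72 and 9.77 in amiodarone pools 1 to 3. The groups overlapped, and amiodarone pool 3 lay inside the vehicle range. The difference was 0.042, with an interval from -0.31 to 0.39, and 0.023 without amiodarone pool 3. Its range over the pools was 1.28-fold, wider than that of 9.02% of features, whereas Myl7, its partner light chain in atrial myosin, had one of the widest.

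Tnni1, the troponin I of slow skeletal muscle and of the fetal heart, rose by 0.90 with an SE of 0.20, or 1.87-fold. Its levels were -0.093, -0.74 and -0.60 in vehicle pools 1 to 3 and 0.28, 0.42 and 0.58 in amiodarone pools 1 to 3. Every amiodarone pool was above every vehicle pool. The adjusted p in limma was 0.0356. The difference was 0.77 on the first slide and 1.17 on the second.

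The Tnni1 call was near the threshold. It held without vehicle pool 1 (adjusted p 0.0348). Leaving out vehicle pool 2, vehicle pool 3 or amiodarone pool 1, 2 or 3 gave adjusted p-values of 0.118, 0.134, 0.0505, 0.106 and 0.0846, with differences between 0.77 and 0.98. With the slide as a block it was 0.0510. The sign held in all 17 alternatives. The adult cardiac isoform, Tnni3, differed by 0.075 (adjusted p 0.784), and the slow skeletal troponin T, Tnnt1, by -0.21 (adjusted p 0.693), with 1 of 3 amiodarone arrays above background.

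Acta1, the alpha-actin of skeletal muscle that the fetal ventricle also makes, gave the clearest difference of the 10 genes, and it was a decrease. Its levels were 5.41, 5.71 and 5.67 in vehicle pools 1 to 3 and 3.92, 4.25 and 4.31 in amiodarone pools 1 to 3. All amiodarone pools were lower than all vehicle pools, and the gap was several times the spread within a group. Acta1 fell by 1.44 with an SE of 0.17, a level 2.71-fold lower, with an adjusted p in limma of 0.00325.

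The fall of Acta1 was 1.48 on the first slide and 1.36 on the second, and it passed the threshold in all 17 alternatives. Without amiodarone pool 3 Acta1 fell by 1.51 (adjusted p 0.00891). Cardiac actin, Actc1, differed by -0.21 (adjusted p 0.466). Other skeletal muscle genes were dim here. Of 13 listed markers on the array 3 were tested and 1 fell, the fast myosin-binding protein Mybpc2, which fell by 1.44. Tnni2 differed by -0.30, and Myh1 and Myh4 were not well above background on any heart array. The summed signal of the skeletal muscle list was 1.96 to 2.29 times the 75th percentile in vehicle and 1.36 to 1.74 times in amiodarone pools. Smooth muscle markers summed to 66.2 to 69.9 in vehicle and 52.3 to 64.7 in amiodarone pools, and 2 of 5 tested fell, where Actg2 fell by 1.17 and Tagln fell by 0.89. The part of either muscle type in the Acta1 result was not tested.

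The 250 bases before Acta1 are shown because Acta1 was the member whose call held in every alternative. They lie at chr19:68784195-68784444 (-) in GRCr8, from RefSeq. Capitals mark the CArG box, CATTCC and TATAAA, in that order from the left, on either strand.
Acta1: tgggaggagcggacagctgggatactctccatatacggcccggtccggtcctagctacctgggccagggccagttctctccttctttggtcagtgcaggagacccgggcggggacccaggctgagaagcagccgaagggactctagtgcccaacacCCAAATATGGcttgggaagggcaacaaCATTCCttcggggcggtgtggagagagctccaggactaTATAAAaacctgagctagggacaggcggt
The CArG box, the site of the serum response factor, begins 94 bases before the start, CATTCC 67 bases and TATAAA 29 bases before it. Of all promoters of that length, 1.5% hold a CArG box. Among the 8 members in the promoter table, Acta1 and Fhl1 hold one, at 94 and 102 bases before the start. A site of the MEF2 factors, held by 0.523% of promoters, was found for none of the 8. These are letters only and show no binding.

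Ankrd1, the cardiac ankyrin repeat protein that binds titin and rises early under load in rodent hearts, was higher in each amiodarone pool without passing the test. Its levels were 6.99, 7.96 and 7.65 in vehicle pools 1 to 3 and 8.18, 8.21 and 8.41 in amiodarone pools 1 to 3. The groups did not overlap here but did under the same 4 settings as for Nppa, and vehicle pool 1 was the low one, as it was for Nppa. The difference was 0.73 with an SE of 0.25, 1.66-fold, and the adjusted p in limma was 0.119. It was 0.72 on the first slide, 0.76 on the second, 0.66 without amiodarone pool 3 and 0.46 without vehicle pool 1.

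Xirp1, an actin-binding protein of the intercalated disc, was at 0.76, 0.55 and 0.79 in vehicle pools 1 to 3 and at -0.66, 0.68 and 0.95 in amiodarone pools 1 to 3. One pool, amiodarone pool 1, was low, and the others were alike. That pool was also the lowest heart pool for the ventricular markers Actn2 and Mybpc3, though not for others such as Myl3 and Tnni3. It held the highest level of 27.6% of all features, against 11.5% to 16.9% in each other heart pool. The difference in Xirp1 was -0.38 (interval -1.27 to 0.52), and it was 0.11 without amiodarone pool 1 and -0.69 without amiodarone pool 3.

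Csrp3, the muscle LIM protein of the Z-disc, was at 8.26, 8.04 and 8.25 in vehicle pools 1 to 3 and 8.43, 8.19 and 8.34 in amiodarone pools 1 to 3. The groups overlapped, and the difference was 0.14 (interval -0.20 to 0.47), and 0.13 without amiodarone pool 3.

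Fhl1, a LIM-domain protein at the titin spring, was at 5.28, 4.87 and 5.27 in vehicle pools 1 to 3 and 5.40, 5.10 and 5.06 in amiodarone pools 1 to 3. The groups overlapped, and the difference was 0.048 (interval -0.36 to 0.46), and 0.11 without amiodarone pool 3. The other two Fhl1 probes gave -0.41 (adjusted p 0.151) and -0.26 (adjusted p 0.356), so the probes disagreed in sign and none passed the test.

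**Figure D3:**
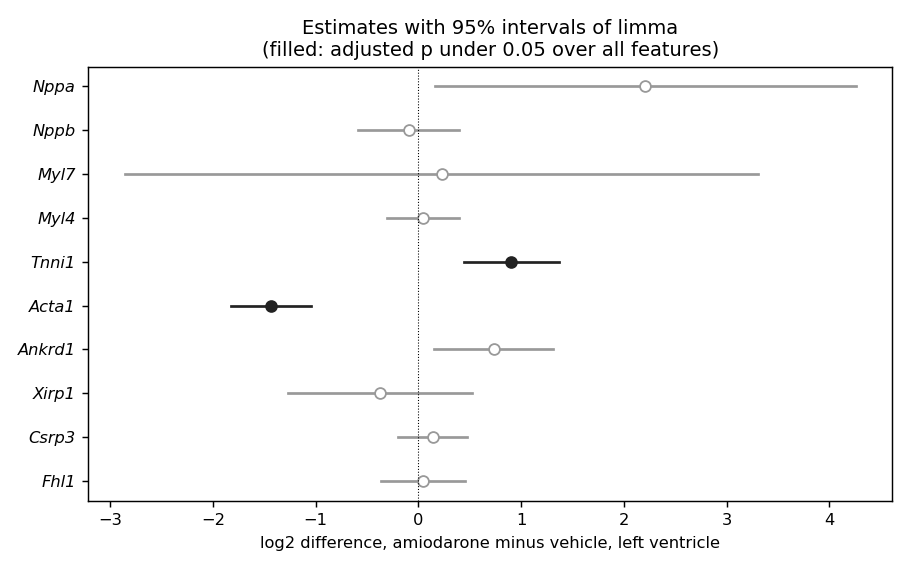
Difference of each member in the left ventricle, amiodarone minus vehicle in log2 units, with the 95% interval of limma (n = 3 pools per group; filled points passed the threshold). Acta1 lies at -1.44 and Tnni1 at 0.90, and the Nppa and Myl7 intervals are the widest.

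**Figure D4:**
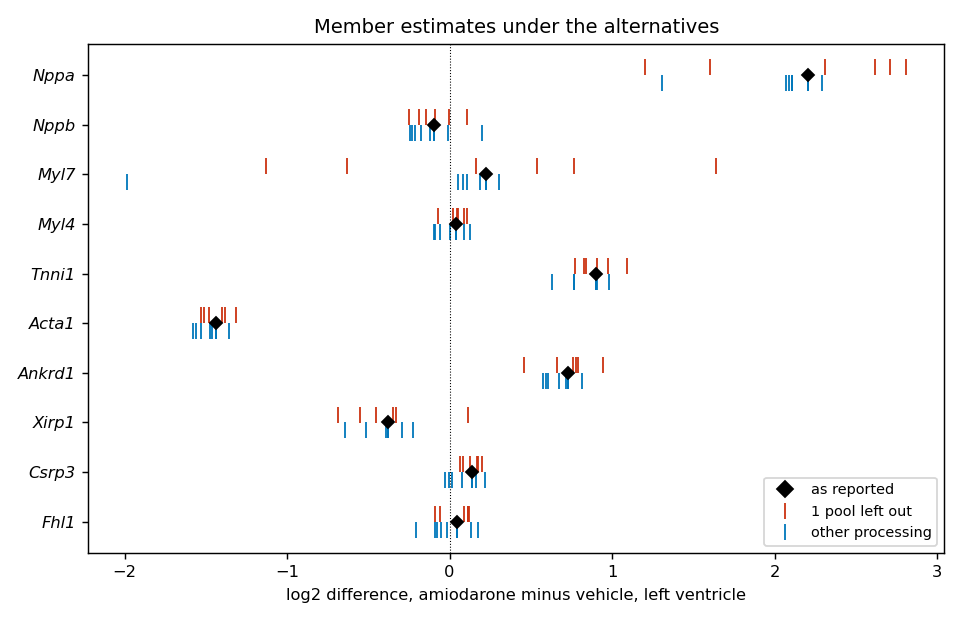
Difference of each member in the left ventricle, amiodarone minus vehicle in log2 units, as reported (diamond), with 1 pool left out (upper ticks) and under other processing (lower ticks). The Acta1 ticks stay between -1.58 and -1.32, the Tnni1 and Nppa ticks stay above 0, and the Myl7 ticks reach from -1.98 to 1.64.

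Over the 5 lists of related genes, 10 of 87 tested genes passed in heart, against 8.36% of all features tested. By direction, 7 of the 87 were higher, against 4.35% of all features tested, and 3 were lower, against 4.01%. Among receptors, processing enzymes and cyclic GMP signalling, 1 of 15 rose and none fell, and the list's median difference was 0.25 against 0.029 for all features. The gene that rose was Gucy1a1, a subunit of the nitric oxide receptor, by 0.79 (adjusted p in limma 0.0294). The natriuretic peptide receptors did not pass. Npr1, the receptor of both hormones, differed by -0.36 (adjusted p 0.176), Npr3, the clearance receptor, by -0.49, and Corin, the protease that cleaves the Nppa precursor, by 0.017.

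Among stretch-responsive Z-disc and titin partners, 2 of 23 rose and 1 fell, with a median of 0.24. Trim54, a ubiquitin ligase of the sarcomere, rose by 1.15 (adjusted p 0.0105), and Nrap, an actin-anchoring protein of the myofibril ends, rose by 0.70. Fhl2, a LIM-domain relative of Fhl1, fell by 0.74 (adjusted p 0.0229). Of the sarcomere isoforms, 1 of 16 rose, with a median of -0.017. That was Myh7, the slow beta-myosin of the fetal rat ventricle, by 0.80 (adjusted p 0.0460), and it lost its call whichever pool was left out. Myh6, the adult rat alpha-myosin, differed by 0.0092.

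Among cardiac transcription factors 1 of 17 rose and 1 fell, with a median of -0.13. Klf15, a repressor of hypertrophic growth in rodents, rose by 1.14 (adjusted p 0.00553), and Srf, the serum response factor, fell by 0.65 (adjusted p 0.0259). Among other genes known from hypertrophy 2 of 16 rose and 1 fell, with a median of 0.16. The metallothionein Mt2A rose by 0.75, and Timp1, an inhibitor of matrix proteases, fell by 0.55. Leaving out single pools ended the calls of Timp1 and Mt2A in all 6 fits, and those of Srf and Nrap in 5 of 6 fits, while Klf15 passed in all 6. Fhl2 and Gucy1a1 passed in 2 of them and Trim54 in 4.

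Other cell types also differed between the heart groups. Cardiac fibroblast markers fell in 5 of 9 tested, where Col3a1 fell by 2.30 and Col1a1 fell by 2.12. Others of the list did not pass and were not all lower, with Dcn at 0.40, Pdgfra at 0.47 and Tcf21 at -0.068. The summed signal, which the collagens and Dcn carry, was 314 to 412 times the 75th percentile in vehicle and 155 to 208 times in amiodarone pools. Red cell markers fell in 5 of 7, and Alas2 fell by 3.14. Add2 and Epb42, also among the 5, were not well above background in any amiodarone pool. They were tested only because the vehicle group, where they were higher, passed the filter. Against the lowest detectable signal there, Add2 was at least 11.6-fold lower and Epb42 at least 2.13-fold lower. Their adjusted p-values in limma, 0.000317 and 0.0175, came from the measured values below background and do not test these bounds. The red cell list had sums of 70.7 to 102 in vehicle and at most 17.4 in amiodarone pools. Macrophage markers rose in 3 of 8, among them Mrc1 by 1.27 and Lyve1 by 1.04. Others did not pass, with C1qa at 0.71, Csf1r at 0.066 and Adgre1 at -0.010. The sums, which C1qa and C1qb mostly carry, were 39.1 to 55.9 in vehicle and 71.7 to 91.4 in amiodarone pools. Endothelial markers fell in 1 of 9, where Tie1 fell by 1.04, with Emcn at -0.48 and sums of 121 to 134 and 126 to 156. Among ventricular markers the differences of Irx4 and Casq2 were -0.80 and -0.73, neither past the threshold. The part of these cells in the members' values was not tested.

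The genes most like Nppa over the 6 heart arrays were Tmem252 (Pearson r 0.988), Pik3ip1 (0.985), Eif6 (0.968), Clec4a1 (0.968) and Sfrp2 (0.962). All 5 were highest in amiodarone pool 3 and lowest in vehicle pool 1, as Nppa was. The genes most like Acta1 were Cercam (0.999), Fhl2 (0.998), Col5a1 (0.998), Treml1 (0.996) and Vgll4 (0.995). They were lower in every amiodarone pool than in every vehicle pool. With 6 arrays and 17764 features, such values describe the arrays only.

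In whole blood 3 members were tested, Fhl1, Myl7 and Myl4. Of the other 7, Acta1 was well above background on 1 of 3 amiodarone arrays and no vehicle array, and Nppa, Nppb, Ankrd1, Xirp1, Csrp3 and Tnni1 on none of the 6. The blood arrays differed in brightness by group, with a 75th percentile of 20.2 to 25.3 in vehicle and 54.1 to 83.5 in amiodarone pools. Red cell markers summed to 12102 to 19988 times the 75th percentile in vehicle and 2998 to 5537 times in amiodarone pools, all 7 above background in both. Of the 3 members tested, 2 were called, Fhl1 higher and Myl7, near background, lower, where 67.9% of all features were called, 41.1% higher and 26.8% lower. The groups did not overlap for any of the 3, as for 73.9% of features, 45.4% of them with amiodarone higher and 28.5% lower. The part of brightness and of red cell RNA in the blood values was not tested.

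Fhl1 was well above background with all 3 probes on every blood array. Its levels were 3.97, 4.26 and 3.99 in vehicle pools 1 to 3 and 5.18, 4.82 and 5.77 in amiodarone pools 1 to 3. Every amiodarone pool was above every vehicle pool. Fhl1 rose by 1.18 with an SE of 0.27, 2.27-fold (adjusted p in limma 0.00689), where the median of all features was 0.45. The other probes rose by 1.32 and 0.99, so all 3 gave one direction. The difference was 0.88 on the first blood slide and 1.78 on the second. After normexp background correction it was 1.06 with an adjusted p of 0.128. Set against heart in one model of both tissues, the blood difference was larger by 1.14 (SE 0.32, adjusted p in limma 0.0129), and 51.4% of features differed between tissues by that test.

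Myl7 was at 0.74, 0.22 and -0.31 in vehicle pools 1 to 3 and at -2.78, -2.07 and -2.40 in amiodarone pools 1 to 3. The vehicle probe was above background on 3 arrays and the amiodarone probe on 2 of 3. The probe was tested only because the vehicle group, where it was higher, passed the filter, and the amiodarone values lay at or near the background. The measured difference of -2.64 (adjusted p in limma 0.00105) was -0.42 after normexp correction (adjusted p 0.125), so its size is not read here. Myl4 was well above background on all amiodarone and no vehicle arrays, and its measured level of -1.23 in vehicle pools was above the -1.67 of amiodarone pools, so no fold is given.

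**Figure D5:**
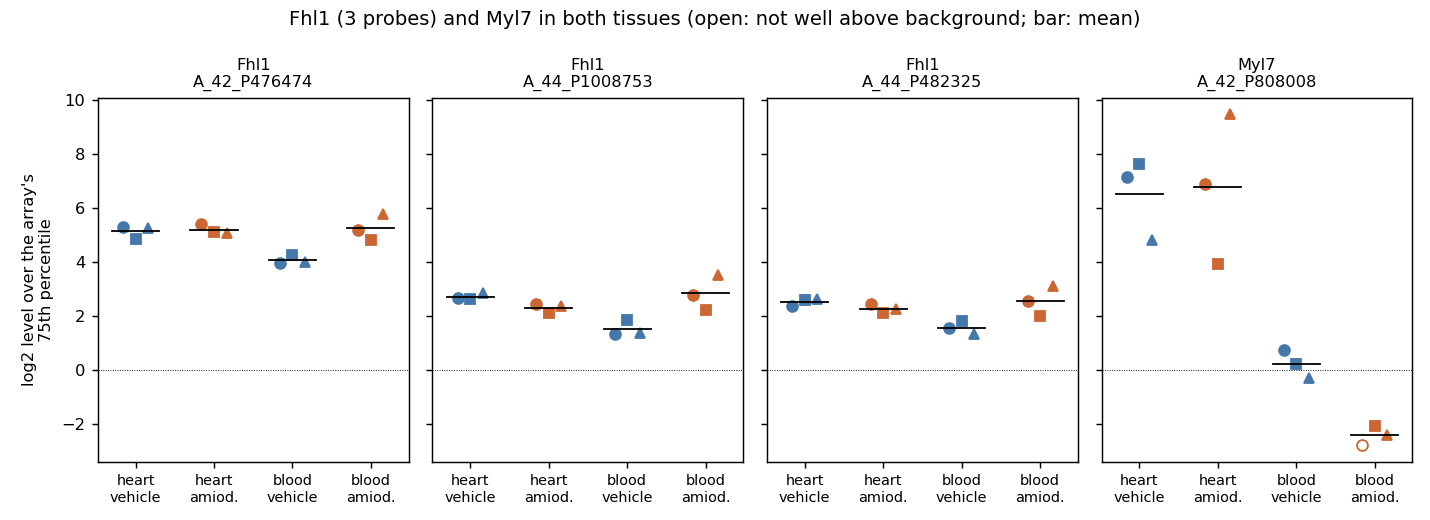
Levels of the 3 Fhl1 probes and of Myl7 in each pool of heart and blood (log2 over the array's 75th percentile; open symbols are not well above background, bars are means, n = 3 per group). All 3 Fhl1 probes are higher in amiodarone than in vehicle blood, and Myl7 is lower there, in the range where 1 array is not above background.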

How the data were processed

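RNA of 12 pools was measured on single-colour Agilent rat arrays. Per the file headers, the deposited processed intensity is the spot signal after background subtraction and detrending by Feature Extraction 9.5.1.1, from scans at a high and a low setting, not normalized between arrays. The authors' value table, a normalized intensity made by a method not given in the sources used here, served as an alternative. The mean and background intensity that the authors deposited for each spot served for normexp (offset 50).

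Spots of a probe were averaged as log2 values without outlier spots, and the log2 of the array's 75th percentile was subtracted. Of the 41012 probes, 16336 were named by accession, 3735 by current symbol and 1108 by synonym, and 19833 kept their file name. The brightest passing probe stood for a gene. Heart and blood had separate fits, made with lmFit and eBayes of limma 3.58.1 under R 4.3.3 (two-sided), and p-values were adjusted by Benjamini-Hochberg over all features of the tissue at 0.05. The fit was tested on simulated data. The number of arrays limits the precision.

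The members and the gene lists were chosen with earlier results of these data known. All members were named with every probe. From each related list up to 4 genes with the smallest p past the threshold were named, and from each marker list up to 2 with the largest difference. Myh6 and Myh7 were named in any case, and the 5 genes most like Nppa and Acta1. Npr1, Npr3, Corin, Tnni3, Tnnt1, Actc1, Kcnj5, Tnni2, Myh1, Myh4, Dcn, Pdgfra, Tcf21 and Epb42 were added after values were seen. So were Pam, Kcnj3, Gja5, Nr2f2, Myl3, Actn2, Mybpc3, Csf1r, Adgre1, C1qa and C1qb. No 2 arrays held identical values. One gene of the related lists that passed, and 1 probe sequence, are not reported here.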

Additional observations from a re-analysis of the deposited data

Results flagged for a closer look

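Fhl1 had a larger measured difference between amiodarone and vehicle in blood than in left ventricle. Its log2 difference was 1.18 in blood and 0.05 in left ventricle, and the test of the difference between them, in one limma model of both tissues, gave 1.14 with an SE of 0.32 and an adjusted p of 0.0129. Blood was higher with amiodarone in 3 of 3 pools, and the heart groups overlapped. By the same test 51.4% of the 13258 features measured in both tissues differed, and the blood arrays of the 2 groups differed in brightness, so the value is one of many. The median difference of all features was 0.45 in blood and 0.029 in heart. After normexp correction the blood difference of Fhl1 did not pass the threshold. The model took the arrays of both tissues as independent. No sample was tested for standing alone within its group, since each group held 3.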

How the results depend on the processing

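The sign and the call of Acta1 held in all 17 alternatives, and the signs of Nppa, Ankrd1 and Tnni1 held in theirs. Called members in heart numbered 1 rather than 2 with no filter, with the slide as a block, with the replicate number as a block and on the first slide only, and 1 to 2 with 1 pool left out. Tnni1 was the call lost. Without scaling it did not pass either (adjusted p 0.333), while Nppa did (2.07, adjusted p 1.09e-06). In that fit limma gave 100% of the features one SE, which no other heart setting did. Called genes of the related lists numbered 2 without scaling, 1 with no filter, 3 with the replicate block, 0 on the first slide only and 2 to 9 with 1 pool left out, against 10. Called features in heart numbered 746, 287, 719, 276 and 526 to 1326 in the same order, against 1485, and 52.0% of them were higher, 64.1% after scaling to the array median and 30.4% without scaling. Those 2 scalings moved the median of all features to 0.11 and -0.11.

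Small differences changed sign. Fhl1 in heart was -0.014 with normexp, -0.078 with quantile scaling, -0.092 without scaling, -0.051 in the authors' value table, -0.21 as the mean of its probes and -0.087 to 0.12 with 1 pool left out. Csrp3 was -0.026 with quantile scaling and -0.0026 without scaling. Myl4 was -0.060, -0.098 and -0.087 with quantile scaling, without scaling and in the authors' table, and -0.073 to 0.11 with 1 pool left out. Nppb was 0.20 on the first slide and -0.25 to 0.11 with 1 pool left out. Myl7 was -1.98 and -1.13 to 1.64 there, and Xirp1 -0.69 to 0.11 with 1 pool left out. In blood, called members numbered 0 with normexp, 8 with no filter and 1 with a filter on all 6 arrays, against 2, and all called features 1295 with normexp and 25208 with no filter, against 10803, with 8590 to 10990 when 1 pool was left out. Myl4 in blood was 1.14 without scaling. The share of called blood features that were higher was 60.5%, and 18.8% with normexp, 69.5% with array median scaling, 97.5% without scaling and 47.4% in the authors' table. The causes were not tested. The labels do not say that equal numbers mark shared rats, and pool 3 of both groups also shared a slide of its own, while pools 1 and 2 lay together on another. The correlations of their deviations from the group means were -0.17, -0.24 and 0.32 in heart and 0.083, 0.17 and 0.31 in blood, and not every pool correlated best with its own number. With the replicate block the adjusted p of Tnni1 was 0.0877. Myl4 and Myl7 had no value in blood with a filter on all 6 arrays, nor Myl7 in the authors' table.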
